A study of Sus scrofa with 4 samples.

Results

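The transcripts of the zona pellucida glycoproteins ZP2, ZP3 and ZP4, of the growth factors GDF9, BMP15 and BMP6, and of the receptor KIT were examined in mature porcine oocytes with and without Cu exposure. These 7 genes were taken by their symbols from the 16050 genes of the table that hold values, and each symbol had 1 row. The Control group was cultured without added Cu and the Cu group with 25 μg/mL Cu, given as copper sulfate in the maturation medium. According to the methods, maturation to metaphase II took up to 44 h inside cumulus-oocyte complexes from slaughterhouse ovaries, and a library held the RNA of 3 oocytes. The labels give the amplification as Smart-seq2, which copies polyadenylated RNA of very few cells. Single libraries were analysed for Control 1 and 2 and for Cu 1 and 3. The methods describe a further set in each group, which is not analysed here but enters the authors' mean FPKM, so those means and the means of 2 libraries printed below are not over the same samples. ATP5PF, NDUFB3, NDUFAB1 and NDUFA13, oxidative phosphorylation genes named outside the rule, were higher in both libraries labelled Cu than in both labelled Control, opposite to the direction given in the paper. Control and Cu therefore stand for the libraries so labelled, and the sign of every difference below rests on the labels, which were not tested in another way. Breed and age of the sows were not given in the sources used here, nor whether the libraries came from separate cultures, so p-values measure only the spread between these libraries. Since each library was a pool of 3 oocytes, a lower level in every oocyte and the loss of a transcript from 1 of them cannot be told apart.

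The zona pellucida is the glycoprotein coat that the growing oocyte secretes around itself, and sperm must bind and cross it at fertilization. In the pig it is built from ZP2, ZP3 and ZP4, which polymerise into filaments through a shared ZP domain. GDF9 and BMP15 are ligands of the TGF-beta family that the oocyte secretes to its surrounding granulosa and cumulus cells, where they support proliferation, metabolism and cumulus expansion. KIT runs in the other direction, as an oocyte membrane tyrosine kinase that receives the KIT ligand made by granulosa cells.

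By the RefSeq gene table of Sscrofa11.1, the assembly named in the submitters' processing notes, ZP2 (gene identifier 396846) lies on chromosome 3 from 24863730 to 24877522 and ZP3 (396927) on the same chromosome from 9934760 to 9944924. ZP4 (397111) lies on chromosome 14 from 53577138 to 53584544. GDF9 (414285) is on chromosome 2 from 135181494 to 135184451, BMP15 (448811) on chromosome X from 44613122 to 44620575, and BMP6 (100155536) on chromosome 7 from 5058817 to 5208868. KIT (396810) is on chromosome 8 from 41402334 to 41492306. The 7 members thus come from 6 chromosomes, and only ZP2 and ZP3 share one. All values below are levels of the whole gene, without a division into exons or isoforms.

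Levels are given as FPKM, fragments scaled to transcript length and library total, so that genes can be compared with each other. The 4 libraries summed to between 616082 and 672681 FPKM, and the number of reads behind a value is unknown. Cu 1 stood apart from the rest, with 9364 genes at 1 FPKM or more against 7923 to 8162 in the other libraries, and with the highest value of the 4 in 51.0% of the tested genes. All 14 oocyte markers that had values were at 1 FPKM or more in every library, led by BTG4, OOEP, KPNA7 and CCNB1, and with unadjusted p-values of 0.05 or less (limma) for 1 higher and 3 lower genes in Cu, beside 7.01% of all tested genes. Of 22 cumulus and granulosa markers 14 had values and 2 or 3 of them reached 1 FPKM. Further markers of this list are named outside the rule. CYP19A1, the aromatase of granulosa cells, was at 0 to 0.06 FPKM and GJA1, the cumulus gap junction gene, at 0 to 0.03 FPKM. NR5A2 was listed at 0 in every library. Higher than these were VCAN at 0.49 to 1.43 FPKM and TNFAIP6 at 0 to 0.97 FPKM. FSHR, LHCGR, FOXL2 and HAS2 were among the markers without values. The summed level of this list was 15.9 and 21.2 FPKM in Control 1 and 2 against 33.7 and 37.3 FPKM in Cu 1 and 3, most of it from KITLG and SERPINE2. SERPINE2, a protease inhibitor, had 1.59 and 2.93 FPKM in Control 1 and 2 against 14.2 and 12.7 FPKM in Cu 1 and 3, with a log2 difference of 2.18 (SE 0.39, unadjusted p = 0.00145 and adjusted p = 0.631, limma). The part of this shift in the results below was not tested.

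The zona genes ZP4 and ZP2 and the growth factor gene BMP15 formed a top group of nearly equal level. Their geometric means over the 4 libraries were 928 FPKM for ZP4, 859 FPKM for ZP2 and 846 FPKM for BMP15. Neither neighbouring pair in this top group kept its order in more than 2 of 4 libraries. ZP4 was above ZP2 in both Control libraries and below it in both Cu libraries. BMP15 was above ZP2 in Control 2 and Cu 1 and below it in Control 1 and Cu 3. GDF9 followed with 250.2 FPKM and ZP3 with 149.7 FPKM, and both of these steps held in 4 of 4 libraries. KIT was at 5.73 FPKM and BMP6 at 0.57 FPKM, again in this order in 4 of 4 libraries. Among all 16050 genes, ZP4 ranked between 47 and 130 and ZP2 between 73 and 177 from the top, depending on the library, whereas KIT ranked between 4498 and 5884 and BMP6 between 8986 and 10038.

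**Figure D1:**
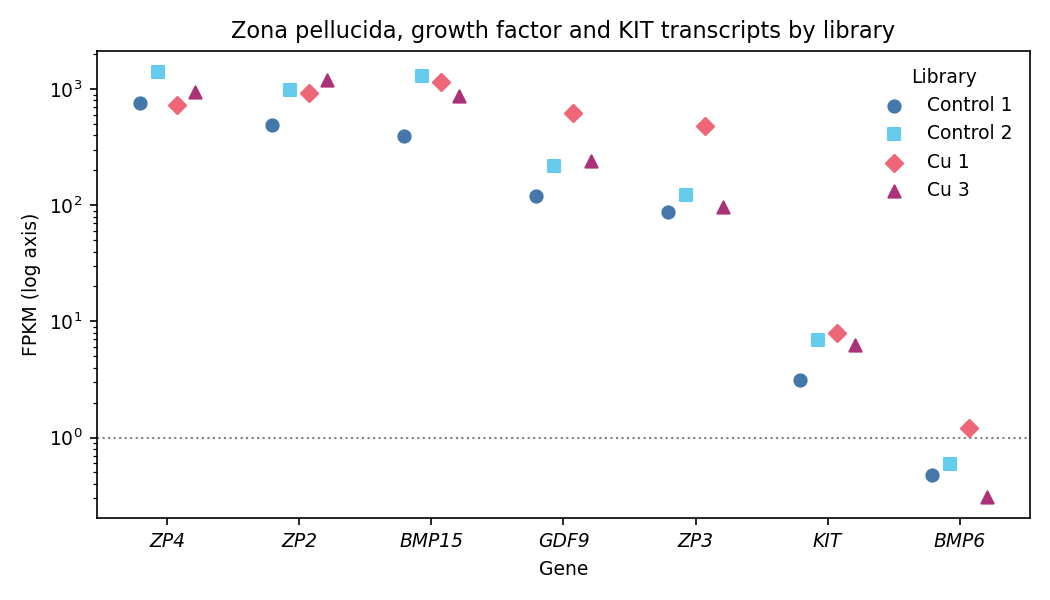
FPKM on a log axis for each of the 7 genes, ordered by geometric mean, with 1 point per library and a dotted line at 1 FPKM. ZP4, ZP2 and BMP15 share the top level, Control 1 is the lowest library for ZP2, ZP3, GDF9, BMP15 and KIT, and GDF9 is the only tested member whose Cu points both lie above both Control points.

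The ZP2 transcript had 495 and 991 FPKM in Control 1 and 2 against 928 and 1198 FPKM in Cu 1 and 3. ZP2 is the zona protein that is cleaved after fertilization, a step of the block to polyspermy. Control 1 was the lowest library and the other 3 lay close together, so the groups overlapped. The log2 fold change of ZP2, Cu minus Control on the log2(FPKM + 1) scale, was 0.59 (SE 0.38, 95% confidence interval -0.35 to 1.53, adjusted p = 0.768, limma). It was 0.090 without Control 1, 1.09 without Control 2, 0.77 without Cu 1 and 0.41 without Cu 3. Each of these fits leaves 1 library in a group, so only the size of the difference is given.

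For ZP4 the values were 755 and 1407 FPKM in Control 1 and 2 against 734 and 954 FPKM in Cu 1 and 3. ZP4 was the one member with a lower mean in Cu, 844 ± 156 FPKM against 1081 ± 461 FPKM in Control (SD, n = 2 each). Cu 1 lay just below Control 1 and Cu 3 between the Control libraries. The log2 fold change of ZP4 was -0.30 (SE 0.36, 95% confidence interval -1.19 to 0.59, adjusted p = 0.859, limma), and it changed sign to 0.15 without Control 2. The authors' mean FPKM of ZP4, which includes the further set of each group, was 896 in either group.

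ZP3, the least abundant zona transcript and the zona protein that partners ZP2 and ZP4 in the filaments, had 88.25 and 122 FPKM in Control 1 and 2. In Cu 3 it was at 96.4 FPKM, inside the Control range, but in Cu 1 it reached 483 FPKM. The Cu libraries thus differed 5.01-fold from each other, a distance between Cu 1 and Cu 3 that only 2.07% of all tested genes equalled or passed. The log2 fold change of ZP3 was 1.05 (SE 0.73, 95% confidence interval -0.74 to 2.84, adjusted p = 0.779, limma), and without Cu 1 it turned to -0.11. Without Cu 3, when Cu 1 stood alone and was assumed to vary like the Control libraries, it was 2.21 with limma's adjusted p at 0.000127, but 1755 of 8541 genes passed an adjusted p of 0.05 in that setting. The authors' mean FPKM of ZP3 was 79.6 for Control and 240 for Cu.

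Summed over the 3 zona genes, Control 1 and 2 had 1338 and 2520 FPKM and Cu 1 and 3 had 2145 and 2248 FPKM. Both Cu sums therefore fell between the Control sums. Inside this sum the composition was less uniform. ZP4 held 56.4% and 55.8% of the zona FPKM in Control 1 and 2, and 34.2% and 42.4% in Cu 1 and 3. ZP2 held 37.0% and 39.3% in the Control libraries and 43.3% and 53.3% in Cu 1 and 3. ZP3 held 4.29% to 6.60% in 3 libraries and 22.5% in Cu 1. Among these 4 libraries the shares of ZP2 and ZP4 did not overlap between the groups. The ZP4 share, Cu minus Control, was between -21.9 and -13.7 percentage points with a single library left out, which is no check of its stability. In the authors' mean FPKM, ZP2 held 42.0% for Control and 50.5% for Cu, and ZP4 held 53.2% for Control and 39.1% for Cu. The Control values of these means lay outside the range of Control 1 and 2 and nearer to Cu for both genes, so the Control set not analysed here had a higher ZP2 share and a lower ZP4 share than Control 1 and 2. The separation of the shares is therefore described for the 4 libraries only.

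The ratio of ZP2 to ZP4, which does not depend on how a library is scaled, was 0.655 and 0.704 in Control 1 and 2 and 1.27 and 1.26 in Cu 1 and 3. This pair was chosen after the values had been seen. On the log2 scale the mean ratio was -0.56 ± 0.073 in Control and 0.33 ± 0.0080 in Cu (SD, n = 2 each), a difference of 0.89. This difference was between 0.84 and 0.94 with each library left out. For a pair so chosen, with 2 libraries a group, that range is no check of stability. With the authors' mean FPKM the ratio was 0.790 for Control and 1.29 for Cu. The Control ratio of these means was above both Control libraries, so the Control set not analysed here had a ratio above 0.790. This is only a lower bound, and the ratio of that set may lie near those of Cu 1 and 3. The SD of Control 1 and 2 understates the spread of the group, and the separation of this ratio is described for the 4 libraries only. With 2 libraries against 2, an exact permutation test cannot reach 0.05, so none was run. Over the 15 pairs of tested members, 4 had ratios that did not overlap between the groups, and ZP4 was part of 3 of them. Among all 36146253 pairs of tested genes above 0 in every library, 39% did not overlap, so the members as a set did not separate more often than other pairs. The ratios of ZP2 and ZP4 to ZP3 overlapped between the groups, with Cu 1 as the lowest library at 1.92 and 1.52 and the other libraries between 5.60 and 12.4.

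**Figure D2:**
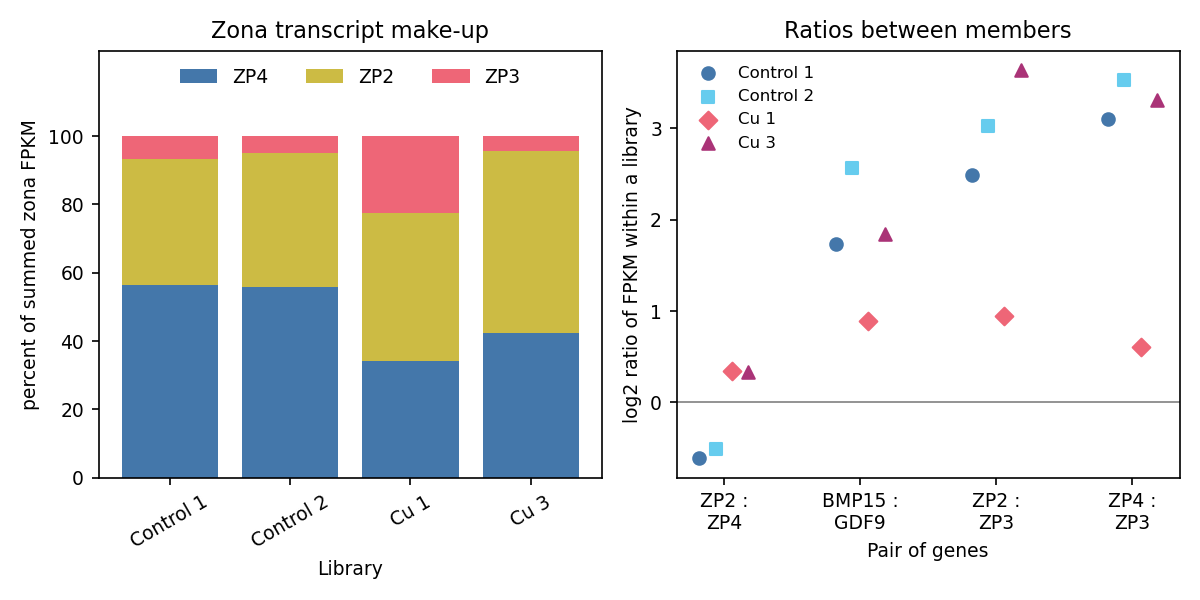
Left, stacked bars of the percent of the summed zona FPKM held by ZP4, ZP2 and ZP3 in each library; right, log2 ratios of FPKM within each library for 4 pairs of genes, 1 point per library. ZP4 holds 56.4% and 55.8% in the Control libraries against 34.2% and 42.4% in Cu 1 and 3, and the ZP2 to ZP4 ratio is below 0 in both Control and above 0 in both Cu libraries.

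GDF9 was the one tested member whose libraries did not overlap between the groups. It had 119 and 218 FPKM in Control 1 and 2 against 624 and 242 FPKM in Cu 1 and 3, means of 168 ± 69.6 and 433 ± 270 FPKM (SD, n = 2 each). Cu 3 was only slightly above Control 2, whereas Cu 1 was far above all other libraries. The log2 fold change of GDF9 was 1.26 (SE 0.53, 95% confidence interval -0.031 to 2.56, unadjusted p = 0.0541 and adjusted p = 0.708, limma). Without Cu 1 it was 0.58, and without Cu 3 it was 1.95 with limma's adjusted p at 0.000928 under the same assumption as for ZP3. After scaling or quantile normalization of the libraries the log2 fold change of GDF9 lay between 1.09 and 1.10. The authors' mean FPKM of GDF9 was 173 for Control and 423 for Cu.

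BMP15, the closest relative of GDF9 and its partner in heterodimers, had 396 and 1287 FPKM in Control 1 and 2 against 1158 and 869.6 FPKM in Cu 1 and 3. Both Cu libraries lay between the Control libraries, which differed 3.25-fold. Only 0.632% of the tested genes were as far apart between Control 1 and Control 2 as BMP15 was. Its log2 fold change between the groups was 0.49 (SE 0.56, 95% confidence interval -0.87 to 1.85, adjusted p = 0.848, limma), which became -0.36 without Control 1 and 1.34 without Control 2. BMP15 exceeded GDF9 in every library, 3.32-fold and 5.91-fold in Control 1 and 2 and 1.86-fold and 3.59-fold in Cu 1 and 3, and these ratios overlapped between the groups.

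BMP6, a further ligand of the family that oocytes are known to secrete, was barely detected. It had 0.48 and 0.59 FPKM in Control 1 and 2 against 1.21 and 0.31 FPKM in Cu 1 and 3, so that the highest and the lowest library were both from Cu. It did not reach 1 FPKM in 2 libraries and was therefore not among the tested genes. Without that filter its log2 fold change was 0.15 (SE 0.32, adjusted p = 0.908, limma), which the added 1 makes small at such a level. KIT had 3.14 and 6.94 FPKM in Control 1 and 2 against 7.90 and 6.25 FPKM in Cu 1 and 3. As for ZP2, Control 1 was the lowest library and the other 3 were close together. The log2 fold change of KIT was 0.49 (SE 0.45, 95% confidence interval -0.61 to 1.59, adjusted p = 0.812, limma), and it was 0.017 without Control 1 and 0.96 without Control 2.

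In total 0 of 6 tested members passed limma's adjusted p of 0.05, as did 0 of all 8541 tested genes (0%), and 0 of 6 had an unadjusted p of 0.05 or less, against 599 of 8541 (7.01%). The limits of 0.05 for the unadjusted p and 1.5 for the log2 fold change were passed together by 0 of 6 members and by 1.87% of the tested genes. Only GDF9 of the 6 had groups that did not overlap, in the direction of higher values in Cu, against 38.8% of the tested genes in either direction and 25.4% in that one. The median log2 fold change of the 6 members was 0.54, beside 0.16 for all tested genes, and after quantile normalization these medians were 0.33 and -0.049. The 95% confidence intervals of all 6 members included 0 but also reached a log2 fold change of 1 in at least one direction, so that 2-fold differences could not be told from none with these libraries.

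**Figure D3:**
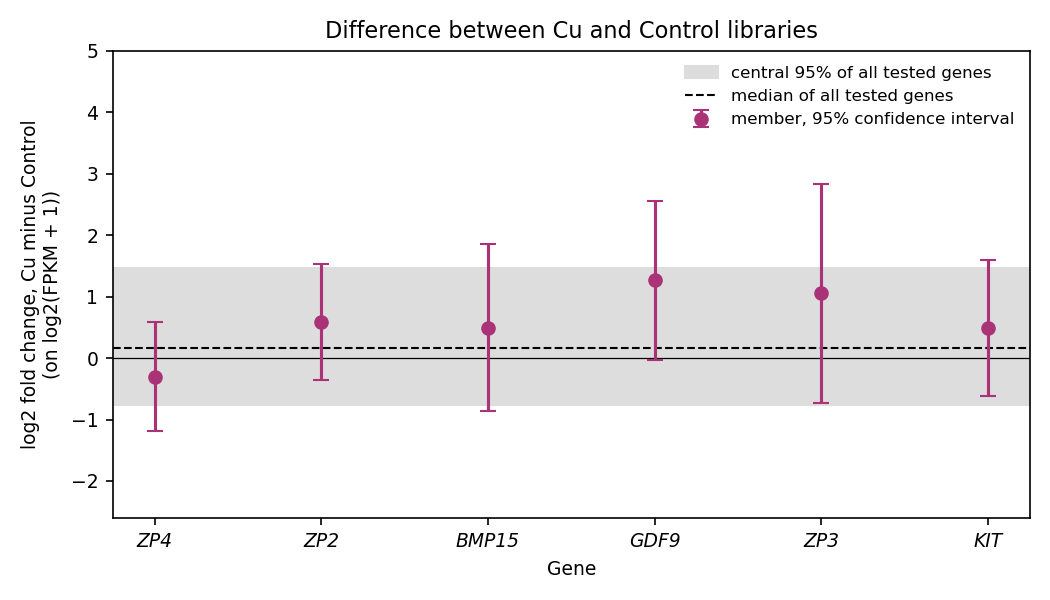
Points give the log2 fold change (Cu minus Control on log2(FPKM + 1)) of the 6 tested genes and bars its 95% confidence interval from limma; the grey band holds the central 95% of all tested genes and the dashed line is their median at 0.16. Every interval crosses 0, with the lower end for GDF9 at -0.031, and ZP4 is the one member below 0.

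The distance between libraries of one group was as large as the distance between groups for most members. From Control 1 to Control 2, ZP2 differed by 1.001, ZP4 by 0.90, GDF9 by 0.86, BMP15 by 1.70 and KIT by 0.94 on the log2(FPKM + 1) scale, all upward, while over all tested genes the median was 0.074. ZP3 differed by 0.46 in the same direction. Only 4.73% of the tested genes were as far apart as ZP2 in this comparison, and 5.78% as far apart as KIT. From Cu 3 to Cu 1, ZP3 was higher by 2.31 and GDF9 by 1.36, whereas ZP2 and ZP4 were slightly lower (-0.37 and -0.38) and the median of all tested genes was 0.30. All 6 tested members were thus lower in Control 1 than in Control 2, but they did not move together between the Cu libraries.

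Among the 8540 other tested genes, those nearest to a member were listed by the Euclidean distance of log2(FPKM + 1) over the 4 libraries. The gene nearest to BMP15 was ZP2 (distance 0.75), and ZP4 was the third (1.15). For ZP2 itself the nearest genes were PSMB1, LOC100516606 and NDUFA1 (0.66 to 0.72), and for ZP4 they were SMN1, MELK and PNPLA4 (0.61 to 0.81). ZP3 had RPL36, NPM2 and MRPS23 as its nearest genes (0.65 to 0.89), of which NPM2 encodes an oocyte nucleoplasmin. RPL36 and NPM2 shared the high value of Cu 1, with 439 and 313 FPKM there and 79.1 to 103 FPKM elsewhere. Such sharing follows from the choice by distance over the same 4 libraries, for these and for all other nearest genes. GDF9 was closest to DYNLL1, SLC31A2 and SDF2 (0.40 to 0.75), and KIT to NFS1, RPN1 and CXCL9 (0.11 to 0.19). SLC31A2, which encodes a copper transport protein, had 106 and 208 FPKM in Control 1 and 2 against 469.7 and 189 FPKM in Cu 1 and 3.

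Genes of the TGF-beta pathway, the family of GDF9, BMP15 and BMP6, were examined with lists. GDF9 and BMP15 signal to granulosa and cumulus cells, whereas the levels below are those of the oocyte libraries. The response of the surrounding cells was not measured. Of 13 receptor genes 8 were tested, and 0 of them had an unadjusted p of 0.05 or less (limma). The highest were ACVR1B, with a mean of 15.1 FPKM over the 4 libraries, ACVR2A, BMPR1B and ACVR1. Named outside the rule as the known receptors of BMP15 and GDF9, BMPR2 had 3.71 and 3.74 FPKM in Control 1 and 2 against 3.31 and 2.82 FPKM in Cu 1 and 3, BMPR1B had 4.49 to 5.93 FPKM and TGFBR1 0.80 to 1.83 FPKM over the 4 libraries. In the oocyte libraries the receptor transcripts were thus far less abundant than those of the 2 main ligands. Their median log2 fold change was 0.11, beside 0.16 for all tested genes, and it turned to -0.17 after quantile normalization.

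The SMAD proteins carry the signal from these receptors to the nucleus. Of 8 SMAD genes 3 were tested, namely SMAD1 and SMAD5, which follow BMP receptors, and SMAD2, which follows TGF-beta and activin receptors. SMAD1 had 62.5 and 58.4 FPKM in Control 1 and 2 against 43.1 and 29.6 FPKM in Cu 1 and 3, with a log2 difference of -0.74 (SE 0.33, adjusted p = 0.708, limma). SMAD2 was on the opposite side, with 11.3 and 9.93 FPKM in Control against 21.8 and 15.1 FPKM in Cu, with a log2 difference of 0.72 (SE 0.36, adjusted p = 0.717, limma). The groups did not overlap for SMAD1 and SMAD2, as for 38.8% of all tested genes, while SMAD5 overlapped. Named outside the rule, the common partner SMAD4 was at 0.09 to 0.45 FPKM and the inhibitory SMAD7 at 0 to 0.02 FPKM. Of 6 SMAD target genes only ID1 and ID3 were tested. ID3, an inhibitor of basic helix-loop-helix factors, was one of the most abundant transcripts of these lists, with 8974 and 9239 FPKM in Control 1 and 2 against 6826 and 4943.5 FPKM in Cu 1 and 3. The log2 difference of ID3 was -0.65 (SE 0.24, unadjusted p = 0.0384 and adjusted p = 0.665, limma).

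Transcripts of further ligands and their binding proteins were far less abundant than those of GDF9 and BMP15. Of 17 other ligand genes 3 were tested, BMP4, BMP2 and GDF3. BMP4 had 14.3 and 21.8 FPKM in Control 1 and 2 against 11.8 and 5.87 FPKM in Cu 1 and 3, and BMP2 had 1.10 and 1.59 FPKM in Control against 8.40 and 2.11 FPKM in Cu. Their groups did not overlap, BMP4 being lower and BMP2 higher in Cu, beside 38.8% of all tested genes without overlap, with limma's adjusted p at 0.708 for each. Of 11 antagonists and binding proteins 5 were tested, led by BMPER, FST and LTBP1. FST, the activin antagonist follistatin, was at 10.2 to 15.9 FPKM in all libraries and its groups overlapped. The convertases that cut TGF-beta family and zona precursors were weakly expressed. PCSK5 had 2.09 to 3.27 FPKM, and FURIN had 0.60 and 1.38 FPKM in Control 1 and 2 against 3.50 and 1.87 FPKM in Cu 1 and 3. Of these other ligands, binding proteins and convertases, 0 of 10 tested genes had an unadjusted p of 0.05 or less (limma).

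Of 34 genes of KIT signalling 19 were tested, and 0 had an unadjusted p of 0.05 or less (limma). Their median log2 fold change was 0.17, close to the 0.16 of all tested genes, with 12 above and 7 below 0. Among the more abundant transcripts of this list were those of the kinase MAP2K1, the SRC-family kinase FYN and the adaptor SHC1. MAP2K1 had 134 and 115 FPKM in Control 1 and 2 against 87.9 and 80.7 FPKM in Cu 1 and 3, with a log2 difference of -0.55 (SE 0.28, adjusted p = 0.721, limma). KITLG, the KIT ligand, is named outside the rule. It had 12.4 and 15.8 FPKM in Control 1 and 2 against 16.2 and 23.1 FPKM in Cu 1 and 3, above KIT in every library, with a log2 difference of 0.44 (SE 0.36, adjusted p = 0.801, limma).

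In the lists of zona remodelling and regulator genes, Cu 1 was the highest library for most tested genes. ASTL, the ovastacin protease of the cortical granules that cleaves ZP2, had 1.69 and 4.14 FPKM in Control 1 and 2, 37.1 FPKM in Cu 1 and 4.12 FPKM in Cu 3. FETUB, the inhibitor of ovastacin, had 3.77 and 4.51 FPKM in Control against 9.47 and 2.69 FPKM in Cu 1 and 3. Of the regulators, the germline factor LHX8 was the highest, with 13.7 and 22.8 FPKM in Control 1 and 2, 67.9 FPKM in Cu 1 and 19.3 FPKM in Cu 3, followed by NR6A1, GATA4 and TCF12. FIGLA, a known activator of the zona genes and named outside the rule, had 1.87 and 0.96 FPKM in Control 1 and 2, 15.4 FPKM in Cu 1 and 2.21 FPKM in Cu 3. Cu 1 was the highest library for 3 of 3 tested remodelling genes and for 5 of 7 tested regulators, as for 51.0% of all tested genes, and Cu 3 lay within or near the Control range for ASTL, FETUB, LHX8 and FIGLA. None of these 10 entries had an unadjusted p of 0.05 or less (limma).

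**Figure D4:**
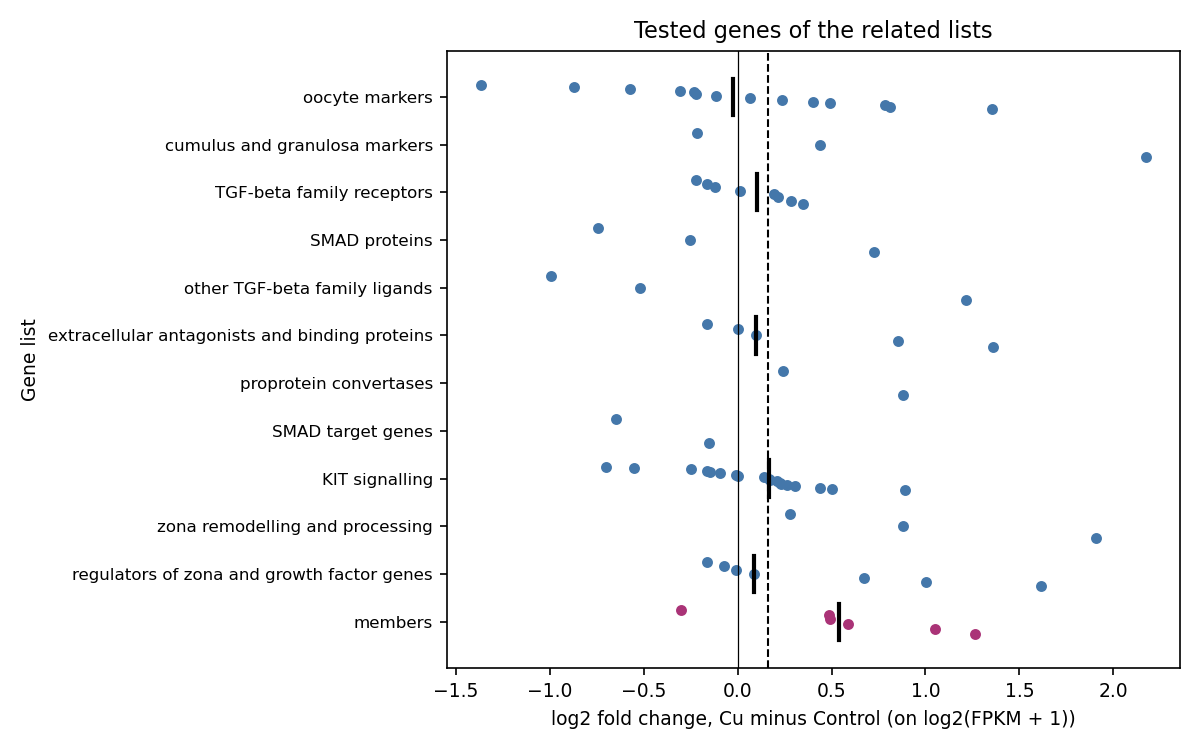
Each point is the log2 fold change (Cu minus Control on log2(FPKM + 1)) of 1 tested gene of a list; black bars are medians of lists with 5 or more tested genes, and the dashed line is the median of all tested genes at 0.16. The members have their median at 0.54 and the KIT signalling genes at 0.17.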

How the data were processed

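The 4 libraries were assigned to groups by their labels, and dose, culture time and pool size were taken from the paper's methods. Values deposited by the authors are FPKM, rounded to 2 decimals, for 16050 of 30684 rows, beside the authors' mean FPKM of each group, which is printed only as such and, by the methods, covers 3 sets a group. The sources differ on how the FPKM were made: the paper gives SOAPnuke, HISAT2, Bowtie2 and RSEM 1.2.12, and the submitters' processing notes list TopHat2 2.0.13 and Cufflinks 2.2.1. Because the smallest value above 0 was the rounding limit of 0.01, reads could not be recovered. Depth is therefore unknown and no counting interval is given.

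All 8541 genes that reached 1 FPKM in 2 or more libraries were fitted together on log2(FPKM + 1) with limma 3.58.1 in R 4.3.3 (lmFit, then eBayes with its trend option), and p-values were adjusted over all of them by Benjamini-Hochberg. The study's own test on counts could not be used on FPKM. The fit was tested on simulated data. Members and gene lists were chosen with earlier results of these data known. Named are all members, of each list those past the limits for unadjusted p (0.05) and log2 fold change (1.5) or otherwise up to 4 with the highest mean, and the 3 nearest genes of each tested member, except that a gene of the KIT signalling list is not reported here. Genes named outside this rule are marked. A list median is given for 5 or more tested genes. Directions are those of the sample labels, which some oxidative phosphorylation genes put in doubt. All 16050 gene identifiers matched the RefSeq table. Alternatives were another pseudocount, other filters, scalings, no variance trend and leaving out each library.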

Additional observations from a re-analysis of the deposited data

How the results depend on the processing

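No paired analysis was possible because the groups share only 1 replicate number. With each library left out in turn, members past an adjusted p of 0.05 numbered 0 to 2, those past the limits of 0.05 (unadjusted p) and 1.5 (log2 fold change) numbered 0 to 2, and those without overlap numbered 2 to 5, where 1 library is compared with 2. Leaving out a library can only remove overlap, and the share of all tested genes without overlap is not given for these fits. The counts of 2 to 5 are therefore no result about the members. The log2 fold changes of ZP3 and GDF9 were highest without Cu 3, at 2.21 and 1.95, when Cu 1 alone stood for its group. The median log2 fold change of the members ranged from 0.053 to 1.19, the higher without Control 2. Over the same fits ZP3 ranged from -0.11 to 2.21, ZP4 from -0.75 to 0.15 and BMP15 from -0.36 to 1.34, with the sign turned without Cu 1, Control 2 and Control 1 in this order, and the cause was not tested. Over all genes, 0 to 1755 passed an adjusted p of 0.05, and 77 to 741 were higher and 11 to 41 lower past the limits of p and fold change. A pseudocount of 0.1 gave 246 higher and 24 lower genes, compared with 150 and 10. Upper-quartile, median-of-ratios and quantile scaling each gave 20 lower genes. These 3 moved the median of all genes from 0.16 to 0.014, 0.015 and -0.049, a shift of 0.15, 0.15 and 0.21 in the point against which each log2 fold change is read. Genes of the pathway lists past the limits numbered 0 to 6 upward without 1 library. The receptor median of 0.11 was 0.015 without a filter and with 1 FPKM required in every library, and -0.035, -0.033 and -0.17 after the 3 scalings. It was -0.11 to 0.12 with a library left out. Pseudocount, filters, scalings and the variance trend did not change the direction of any tested member. The fits without 1 library leave an arm of 1, which is assumed to vary like the other group. Without single libraries the ZP3 share difference ranged from -1.43 to 16.8 percentage points and the log2 ZP2 to ZP3 ratio difference from -1.81 to 0.88. With 2 libraries a group, leaving one out is no check of the stability of shares and ratios.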
